A study of Mus musculus with 10 samples.

Results

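The genes described here encode potassium, calcium, sodium and TRP (transient receptor potential) channels. They were chosen by symbol alone, as every gene whose symbol begins with Kcn, Cacn, Scn and a digit, or Trpc, Trpm or Trpv and a digit, which gave 141 of the 18384 genes listed in the mRNA-seq data. The cells were adipocyte precursors (APs) from the subcutaneous white fat of C57BL/6J mice, freed of CD45- and CD31-bearing cells on magnetic columns, selected for SCA-1 and grown in DMEM F12 with 10% fetal bovine serum. Control cultures (replicates 1, 2 and 3) received no cytokine, whereas IL-4 cultures (replicates 4, 5 and 6) had IL-4 in the medium from the day after seeding, and all 6 were harvested on day 4. The series calls them biological replicates. Whether each came from its own mice is not given in the sources used here, so p-values measure the spread between these cultures.

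Ion channels are membrane proteins that let selected ions down their gradients. Potassium channels mostly hold or restore a negative membrane potential, voltage-gated sodium and calcium channels open on depolarization, and TRP channels respond to lipids, calcium, heat, stretch or osmotic change. Many pores work with auxiliary subunits that set their gating and traffic, and in APs, which are not excitable in the way of nerve or muscle, calcium and membrane potential are known to bear on proliferation and adipogenesis.

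Depth was even, at 28526782 to 28674604 expected counts in controls and 28914003 to 29057787 with IL-4. Of the AP markers, all 10 had reads, and Pdgfra, which encodes a growth factor receptor of these cells, had a mean of 55.3 FPKM in controls and 71.4 FPKM with IL-4. Markers of macrophages were also present in spite of the CD45 depletion. Their summed level was 4670 to 6110 FPKM in controls and 1910 to 2580 FPKM with IL-4, and 12 of 14 were lower with IL-4 by edgeR. Lyz2 was the largest part of the sum, with means of 2740 and 776 FPKM. The falls were uneven, with log2 fold changes from -0.24 (Adgre1) to -2.91 (Fcgr1). Mrc1 was higher (0.82, edgeR adjusted p = 4.66e-04), and Cd68 did not pass (0.38, edgeR adjusted p = 0.0572). Smooth muscle and pericyte markers summed to 1350 to 1440 FPKM and 430 to 515 FPKM, with 9 of 9 lower, and Schwann cell markers to 36.6 to 38.0 FPKM and 18.8 to 19.3 FPKM, with 5 of 7 lower. Most of the smooth muscle sum in controls was Acta2 and Tagln (means of 796 and 551 FPKM). Of the others, Cnn1 was the highest at 30.5 FPKM, and Myh11, Des and Rgs5 were at 1.55, 1.57 and 0.857 FPKM. In bulk RNA, fewer cells of a type and less RNA per cell cannot be told apart. Lymphocyte markers were at or near 0, with no marker above 3 counts in a library, and of the neuronal markers Snap25 had no read, Rbfox3 and Syt1 had at most 2 and 1 counts and Stmn2 at most 13. The neuronal marker Tubb3, which other cells also express, fell from a mean of 43.1 to 25.3 FPKM (log2 fold change -0.60, SE 0.06, edgeR adjusted p = 1.40e-04). Control 3 and IL-4 6 had the highest summed macrophage markers of their groups and were the poorest in long transcripts. In the longest of 5 length classes of genes, their median log2 deviation from the group mean was -0.08 and -0.18. In the shortest class it was 0.11 and 0.22. Ptprc, Csf1r, Itgam and Mrc1 were the lowest of the group in IL-4 6, and the other macrophage markers the highest.

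Most channel genes were silent or low in these cultures, and the level, as FPKM (fragments scaled to transcript length and library total), spanned a wide range among those that were read. Of the 141 genes, 40 had at most 3 counts in every library, 31 had a mean of at least 1 FPKM in controls and 27 did with IL-4. Only 9 reached 10 FPKM in each group. The highest was Trpc4ap, an adaptor named for its binding to a TRPC channel and not itself a channel, at 57.19, 57.14 and 55.96 FPKM in control replicates 1 to 3 and 49.6, 50.2 and 48.22 FPKM in IL-4 replicates 4 to 6. In controls it was followed by Kcne4, a single-span auxiliary subunit of voltage-gated potassium channels (mean 34.4 ± 1.48 FPKM, SD, n = 3), Cacnb3, a cytoplasmic calcium channel beta subunit (28.1 ± 0.811), Cacng7, a transmembrane protein of the calcium channel gamma family (21.2 ± 1.61) and Trpm7, a magnesium- and calcium-permeable channel fused to a kinase (19.8 ± 1.58). With IL-4, Cacnb3 (25.6 ± 1.3 FPKM), Trpv2 (20.9 ± 1.29) and Cacng7 (20.5 ± 0.93) were among the highest. Trpv2 and Cacng7 lay within their spread with IL-4, as Cacng7 and Trpm7 did in controls. Of the voltage-gated potassium, calcium and sodium pore genes, only Scn7a passed 6 FPKM, in IL-4 replicates 4 and 5 (6.47 and 6.2 FPKM).

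**Figure D1:**
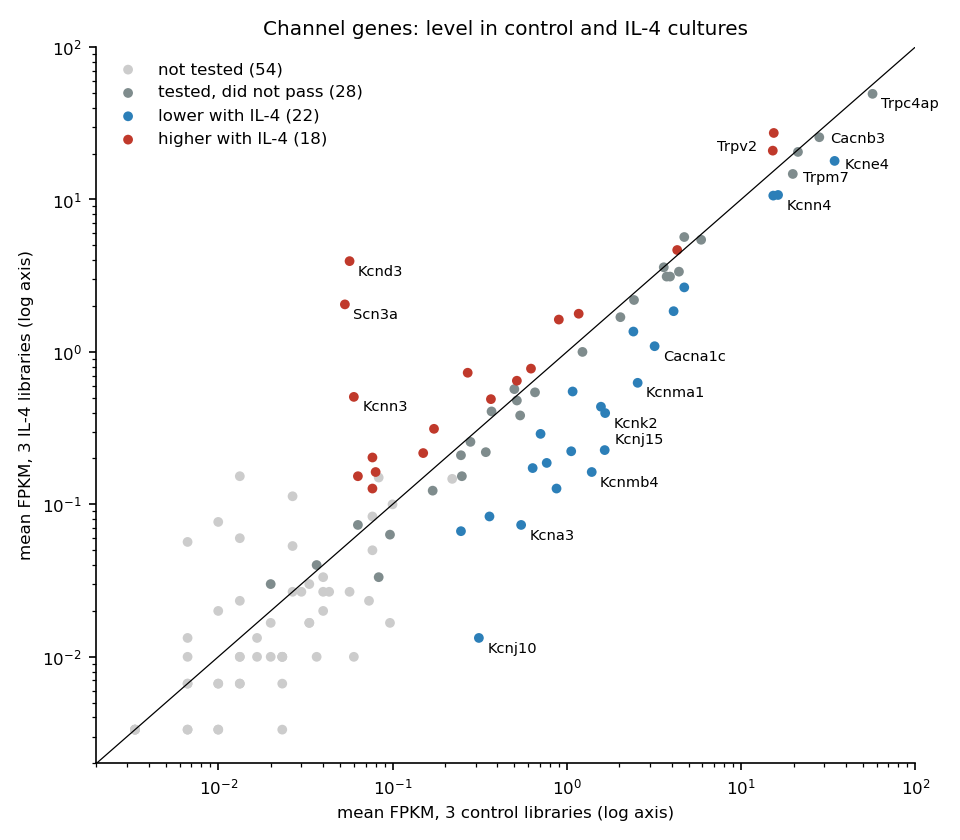
Mean FPKM in the 3 control libraries against the 3 IL-4 libraries (both axes logarithmic) for the 122 channel genes above 0 in both groups, coloured by the edgeR call. Kcnd3, Scn3a and Kcnn3 lie far above the line of equal FPKM and Kcnj10 far below it, whereas the genes above 10 FPKM in a group lie within 2-fold of it.

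With IL-4, large changes ran in both directions. Of the 69 channel genes with enough reads to be tested (about 10 counts in at least 3 libraries, as edgeR's filter sets it), 19 were higher (27.5%) and 22 lower (31.9%) at an adjusted p under 0.05 in edgeR's quasi-likelihood test, beside 19.0% and 18.4% of all 14009 genes tested. Beyond a 2-fold change, 11 rose (15.9%) and 15 fell (21.7%), beside 5.77% and 5.26% of all genes. The 72 untested genes reached at most 24 counts in any library, and a gene can pass the filter through one group only, so these shares describe the tested genes and not the family. The median log2 fold change over the 69 was -0.09, beside 0.00 over all genes. Groups did not overlap in scaled counts for 20 (higher) and 24 (lower) of the 69, beside 25.2% and 25.3% of all genes. When libraries were scaled by their totals alone, which lowers the median log2 fold change of all genes by 0.17, the split became 15 higher and 28 lower, with 12.2% and 35.4% of all genes.

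**Figure D2:**
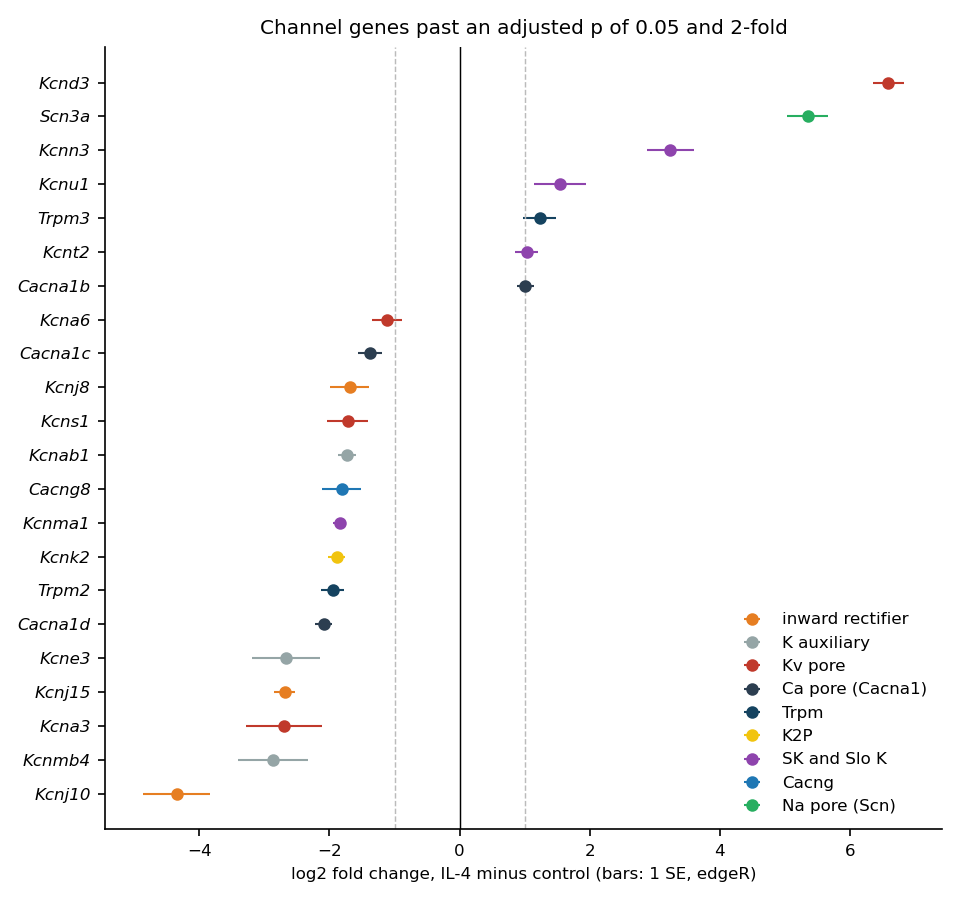
Log2 fold change (IL-4 minus control, bars 1 SE, edgeR on 3 against 3 libraries) of 22 channel genes past an adjusted p of 0.05 and 2-fold, coloured by subfamily. Kcnc2, which had no control read, and 3 genes not reported here are left out; Kcnd3 (6.59) and Kcnj10 (-4.35) are the extremes of those drawn.

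RefSeq promoter windows (GRCm38.p6, from 250 bases before to 50 after a start site) were held for 107 of the 141 genes, among them 6 of the 11 that rose and all 15 that fell beyond 2-fold. IL-4 receptors signal through STAT6, which is known to bind TTC and GAA set apart by a short gap, so both letter patterns, TTCNNNGAA and TTCNNNNGAA, were looked up. Each reads the same on both strands, and the 2 matches of different kind in the Trpm3 window do not overlap. TTCNNNGAA was in 1 of 10 windows of genes that rose and 2 of 24 of genes that fell, beside 8.3% of all 32851 windows. TTCNNNNGAA was in 2 of 10 and 4 of 24, beside 6.95% of all windows. A gene can have several windows, some of which overlap, so windows are not independent. By gene, TTCNNNGAA was in 1 of 6 that rose and 2 of 15 that fell, beside 9.55% of all genes with windows. TTCNNNNGAA was in 2 of 6 and 3 of 15, beside 8.01%. Kcnk2 and Trpm3 also have windows without a match. The windows below are those of the gene with the largest fitted rise among those with control reads, which held neither pattern, and of 4 changed genes that held one or both. Matches are in capitals and are letters only, not shown to be bound.
Kcnd3 (rose; chr3:105451640-105451939, plus strand): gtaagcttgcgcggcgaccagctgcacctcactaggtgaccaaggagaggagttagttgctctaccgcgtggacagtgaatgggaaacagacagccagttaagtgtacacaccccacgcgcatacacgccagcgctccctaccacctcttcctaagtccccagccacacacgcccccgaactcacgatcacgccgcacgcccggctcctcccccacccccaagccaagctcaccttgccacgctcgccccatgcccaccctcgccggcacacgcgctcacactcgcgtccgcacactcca
Kcnt2 (rose; chr1:140245468-140245767, plus strand): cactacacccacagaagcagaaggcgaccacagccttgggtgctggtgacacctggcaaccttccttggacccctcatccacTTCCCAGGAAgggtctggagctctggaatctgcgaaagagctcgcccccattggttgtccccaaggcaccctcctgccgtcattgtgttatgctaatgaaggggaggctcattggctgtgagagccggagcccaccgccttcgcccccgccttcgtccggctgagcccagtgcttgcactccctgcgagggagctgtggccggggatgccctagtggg
Trpm3 (rose; chr19:22447958-22448257, plus strand): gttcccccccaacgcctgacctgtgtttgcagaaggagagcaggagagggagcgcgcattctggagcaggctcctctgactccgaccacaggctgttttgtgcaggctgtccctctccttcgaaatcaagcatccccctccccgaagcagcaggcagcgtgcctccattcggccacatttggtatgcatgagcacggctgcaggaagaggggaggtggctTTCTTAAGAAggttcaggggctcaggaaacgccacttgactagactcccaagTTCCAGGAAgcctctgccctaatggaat
Kcnk2 (fell; chr1:189402224-189402523, minus strand): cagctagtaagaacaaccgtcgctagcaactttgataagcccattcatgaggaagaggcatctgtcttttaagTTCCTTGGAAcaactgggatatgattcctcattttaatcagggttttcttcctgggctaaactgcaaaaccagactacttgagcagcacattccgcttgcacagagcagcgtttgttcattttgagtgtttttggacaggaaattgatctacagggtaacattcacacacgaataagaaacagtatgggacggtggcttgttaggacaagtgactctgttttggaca
Kcnj8 (fell; chr6:142571565-142571864, minus strand): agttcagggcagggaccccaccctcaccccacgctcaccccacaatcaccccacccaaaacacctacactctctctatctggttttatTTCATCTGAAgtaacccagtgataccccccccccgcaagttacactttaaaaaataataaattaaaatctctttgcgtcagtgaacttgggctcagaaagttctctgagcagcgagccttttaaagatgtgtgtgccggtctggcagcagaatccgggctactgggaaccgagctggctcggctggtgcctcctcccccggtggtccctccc
The match in Kcnt2 begins 168 bases before the start site, that in Kcnk2 177 bases and that in Kcnj8 162 bases before it. In Trpm3, whose window belongs to a start inside the gene, TTCNNNNGAA begins 30 bases before and TTCNNNGAA 22 bases after the start. The Kcnd3 window holds 25 CG pairs, where the median is 7 over all windows and 9 over those of the channel genes. Windows of some genes that fell hold more, as with 48 in Kcnmb4 and 37 in Kcna3, so this is not particular to Kcnd3.

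Among voltage-gated potassium pores with reads in the controls, the largest fold change was that of Kcnd3, which encodes a rapidly inactivating A-type channel (chr3:105451890-105674002). It was at 0.07, 0.08 and 0.02 FPKM in controls and at 4.63, 4.24 and 2.94 FPKM with IL-4. These levels correspond to 9, 10 and 5 counts against 794, 739 and 582. Every IL-4 library was far above every control, with a log2 fold change of 6.59 (SE 0.24, edgeR adjusted p = 6.09e-07). Its antisense neighbour Kcnd3os had at most 2 counts. Kcnd1, the closely related A-type gene, was level at 3.6, 3.74 and 3.46 FPKM against 3.4, 3.56 and 3.81 FPKM and did not pass the test (log2 fold change 0.17, SE 0.08, edgeR adjusted p = 0.128). Kcnd3 made up 0.27 to 1.02% of the summed FPKM of the 34 voltage-gated pore genes in controls and 31.6 to 41.0% with IL-4, while Kcnd1 made up 46.7 to 47.8% and 30.1 to 41.0%. The cytoplasmic KChIP subunits that assemble with A-type pores did not pass. Kcnip3 had a log2 fold change of -0.12 (SE 0.20) and Kcnip4 of -0.08 (SE 0.30), and Kcnip1 and Kcnip2 had at most 3 counts.

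In all, 13 voltage-gated potassium pores were tested, with 5 higher and 4 lower (38.5% and 30.8%, beside 19.0% and 18.4% of all genes). Among the others, Kcnc2, a fast delayed rectifier of interneurons, had no read in any control and 25, 22 and 15 counts with IL-4. Set against a floor of 3 counts per library, it was at least 7.69-fold higher. Kcna1, a delayed rectifier at under 0.3 FPKM, rose by 0.92 on the log2 scale, a call lost under 6 of 13 alternatives, among them leaving out control 1, control 3 or IL-4 4 (largest adjusted p over the 13 of 0.188, edgeR and limma). The opposite was seen for Kcna3, the delayed rectifier of lymphocytes and macrophages, which went from 0.57, 0.68 and 0.39 FPKM to 0.13, 0.09 and 0 FPKM (log2 fold change -2.70, SE 0.58, edgeR adjusted p = 0.00723). It was -3.36 without IL-4 replicate 4 and -2.11 without IL-4 replicate 6. Kcna6 (-1.12), the silent modifier Kcns1 (-1.72) and Kcnh2, the delayed rectifier of the heart (-0.79), also fell without overlap between the groups.

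**Figure D3:**
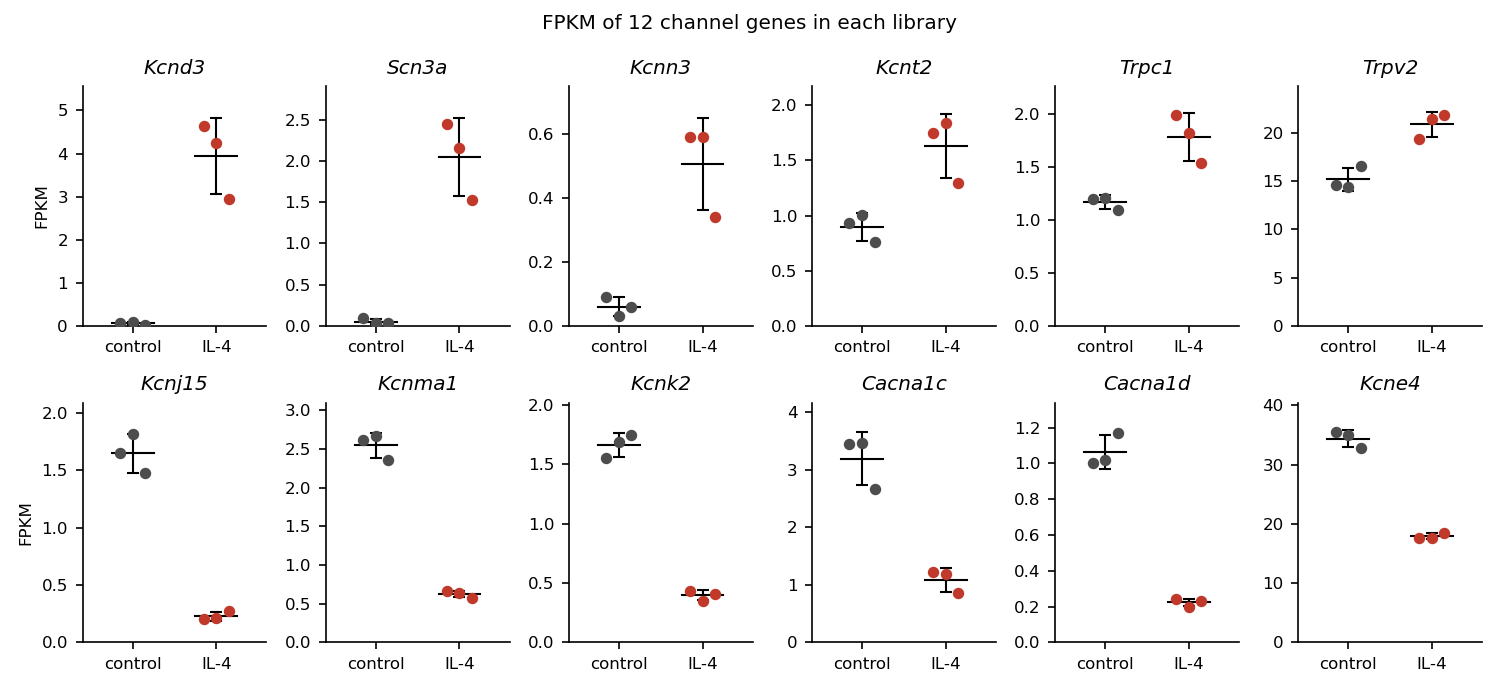
FPKM (linear axes from 0) of 12 channel genes in each control and IL-4 library, with the mean and SD of 3 libraries. The upper row holds genes that were higher with IL-4, led by Kcnd3 at 2.94 to 4.63 FPKM, and the lower row genes that were lower. The 12 were picked from the 19 higher and 22 lower genes called. None of those called overlapped between groups, so the lack of overlap here follows from the choice.

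Inward rectifiers, which carry potassium inward more readily than outward and steady the resting potential, had 3 of 5 tested genes that fell and none that rose in the test. Kcnj10, known from glia, went from 41, 41 and 62 counts to 4, 2 and 0 counts, a log2 fold change of -4.35 (SE 0.51, edgeR adjusted p = 3.24e-04) that became -5.27 without IL-4 replicate 4. With single libraries left out, the value for Kcnj10 ranged from -5.27 to -3.77. Its relative Kcnj15 was at 1.65, 1.82 and 1.48 FPKM in controls and at 0.2, 0.21 and 0.27 FPKM with IL-4, with no overlap (log2 fold change -2.69, SE 0.16, edgeR adjusted p = 6.60e-06). Kcnj8, the pore of the ATP-sensitive channel of smooth muscle and pericytes, fell from 0.61, 0.46 and 0.84 FPKM to 0.18, 0.15 and 0.19 FPKM (log2 fold change -1.69, SE 0.30). The sulfonylurea receptor that it pairs with, Abcc9, fell as well (log2 fold change -0.99, SE 0.21, edgeR adjusted p = 0.00665), and smooth muscle and pericyte markers were lower in the same libraries. Kcnj2, the strong rectifier of heart and muscle, did not pass at 2.13, 2.04 and 1.92 FPKM against 1.67, 1.56 and 1.84 FPKM (log2 fold change -0.09, SE 0.09). It made up 36.9 to 41.4% of the summed FPKM of the inward rectifiers in controls and 59.5 to 65.7% with IL-4. The sum itself went from 5.16 ± 0.0473 to 2.69 ± 0.2 FPKM (SD, n = 3). Among the untested rectifiers, Kcnj16 had 2 counts over the controls and 17 with IL-4 (ratio 9.46, exact 95% counting interval 2.25 to 84.4). Kcnj3 had no control read and 4, 3 and 7 counts with IL-4, at least 1.72-fold higher against a floor of 3 counts per library. Both genes were picked by their counts, so the interval and the bound are not tests.

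The tandem-pore (K2P) channels give a background leak of potassium. Kcnk2, a leak channel gated by stretch and lipids, was at 1.55, 1.69 and 1.75 FPKM in controls and at 0.43, 0.35 and 0.41 FPKM with IL-4. The groups were well apart, with a log2 fold change of -1.89 (SE 0.13, edgeR adjusted p = 2.01e-05). The more abundant Kcnk6 (4.1, 4.08 and 5.02 FPKM against 3.19, 3.75 and 3.14) and Kcnk13 (3.34, 4.04 and 4.34 FPKM against 2.86, 2.75 and 3.75) did not pass. For Kcnk6 the call depended on scaling, since library totals gave a log2 fold change of -0.39 with an edgeR adjusted p of 0.0237, against -0.21 and 0.181.

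The potassium channels opened by calcium or sodium, grouped here as SK and Slo genes, moved in opposite directions. Of 6 tested, 4 were higher and 2 lower (66.7% and 33.3%, beside 19.0% and 18.4% of all genes). Kcnma1, the large-conductance calcium-activated pore, fell from 2.61, 2.67 and 2.36 FPKM to 0.66, 0.64 and 0.58 FPKM (log2 fold change -1.84, SE 0.10, edgeR adjusted p = 5.32e-06). Kcnmb4, the beta subunit that slows that channel, fell with it, from 1.09, 1.76 and 1.33 FPKM to 0.25, 0 and 0.24 FPKM (log2 fold change -2.87, SE 0.54, edgeR adjusted p = 0.00397). Only 20% of the Kcnmb4 counts above 0 were whole numbers, so part of its reads were shared with another gene. An antisense gene, Kcnmb4os2 (chr10:116473163-116474987), overlaps Kcnmb4 (chr10:116417861-116473859). The counts of the pair add to a whole number in each library, as with 29.83 and 2.17 in control 1.

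In contrast, Kcnn3, a small-conductance channel opened by calcium through calmodulin, rose from 19, 7 and 13 counts to 128, 130 and 75 counts (log2 fold change 3.24, SE 0.36, edgeR adjusted p = 2.24e-04). Kcnt2, a sodium-activated channel, went from 0.93, 1.01 and 0.76 FPKM to 1.75, 1.84 and 1.3 FPKM (log2 fold change 1.03, SE 0.18, edgeR adjusted p = 0.00254). Kcnn1, another small-conductance gene, rose by 0.49 on the log2 scale, which 8 of 13 alternative settings did not call. Kcnu1, a pH-gated relative known from sperm, had only 8, 10 and 5 counts against 27, 12 and 22. Its call (log2 fold change 1.54, edgeR adjusted p = 0.018) was lost without control 1, control 3 or IL-4 4 (adjusted p = 0.0589, 0.0628 and 0.0593). Kcnn4, the intermediate-conductance channel of fibroblasts and blood cells, remained the most abundant of the subfamily at 14.97, 14.77 and 19.08 FPKM in controls and 9.07, 10.36 and 12.61 FPKM with IL-4. Control 3 and IL-4 6 were the highest of their groups. These libraries had the highest macrophage marker sums and were the poorest in long transcripts, and the part of either was not tested. Kcnn4 fell by 0.44 on the log2 scale (SE 0.13, edgeR adjusted p = 0.0351), a call lost without control 1, control 3, IL-4 4 or IL-4 5 (adjusted p between 0.0583 and 0.106).

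**Figure D4:**
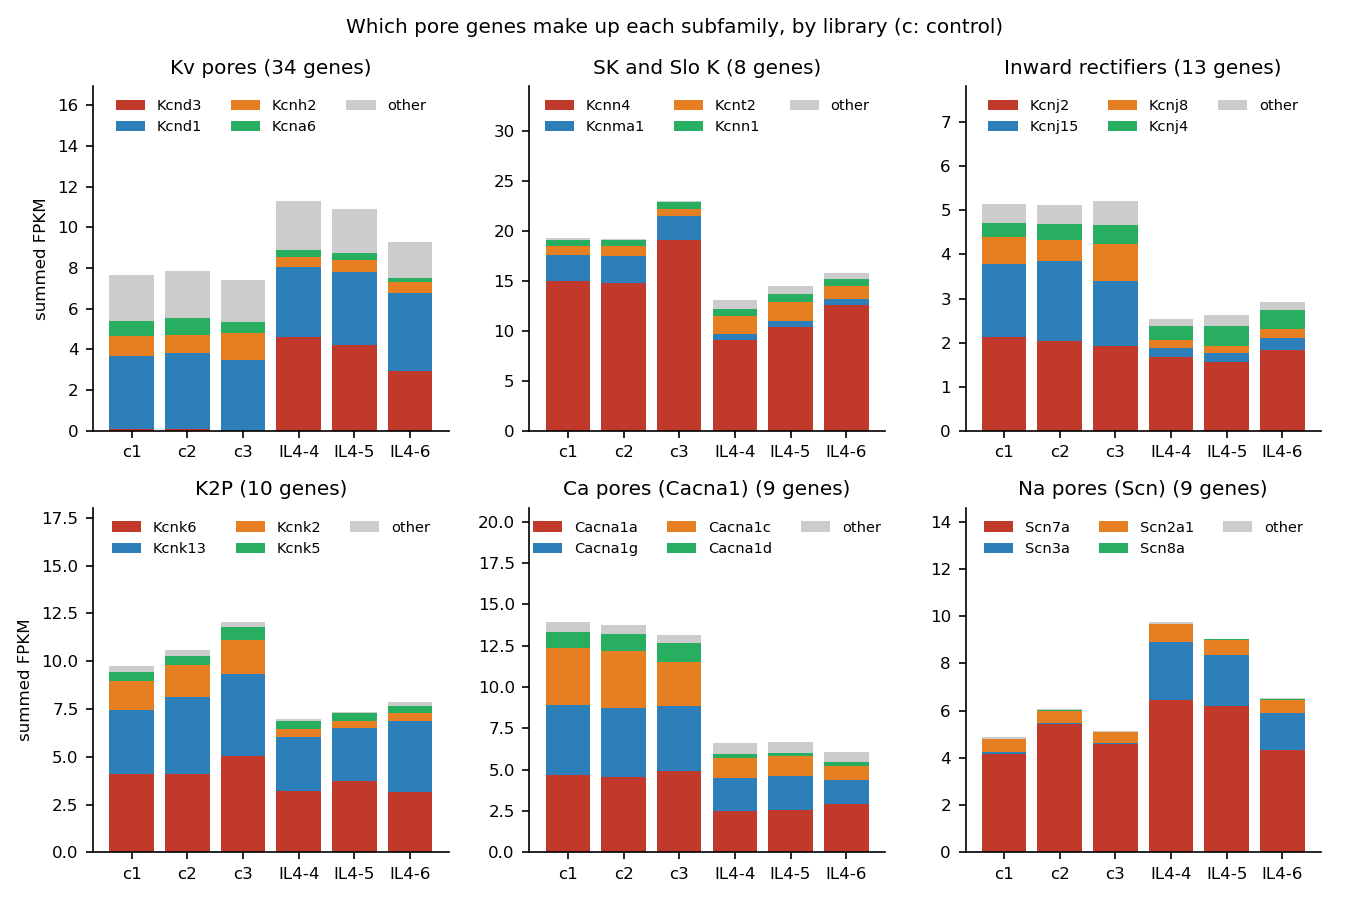
Summed FPKM of 6 pore subfamilies in each library, stacked by gene (the 4 highest genes and the rest; c1 to c3 are controls, IL4-4 to IL4-6 are IL-4 cultures; axes start at 0). Kcnd3 appears only in the IL-4 bars of the voltage-gated potassium pores at visible size, and the calcium pore bars fall from 13.2 to 13.9 FPKM to 6.09 to 6.69 FPKM.

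Potassium channel auxiliary subunits fell or did not pass, with 5 of 8 tested lower (62.5%, beside 18.4% of all genes) and none higher. Kcne4 was at 35.5, 34.93 and 32.7 FPKM in controls and at 17.62, 17.68 and 18.52 FPKM with IL-4, with tight groups (log2 fold change -0.76, SE 0.06, edgeR adjusted p = 3.46e-05). Its relative Kcne3 went from 23, 25 and 25 counts to 0, 4 and 6 counts (-2.67, SE 0.52, edgeR adjusted p = 0.00462), and the log2 fold change was -3.36 without IL-4 replicate 6. With single libraries left out it ranged from -3.36 to -2.1. The beta subunits Kcnab1 and Kcnab2, which resemble aldo-keto reductases and bind Kcna pores, fell by 1.73 and 0.35 on the log2 scale. Kcnab2 is the more abundant of the pair, at 14.59, 15.31 and 16.15 FPKM against 10.58, 10.56 and 10.77 FPKM. The summed level of the 14 auxiliary genes was 55.7 ± 0.929 FPKM in controls and 31.3 ± 1.01 FPKM with IL-4, 57.0 to 63.2% of it from Kcne4 in every library.

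Voltage-gated calcium pores were lower as a group in level, from a sum of 13.6 ± 0.397 FPKM in controls to 6.47 ± 0.328 FPKM with IL-4. Of 7 tested, 4 fell (57.1%, beside 18.4% of all genes). Cacna1c, the main L-type pore of heart and smooth muscle, was at 3.45, 3.46 and 2.66 FPKM in controls and at 1.23, 1.19 and 0.85 FPKM with IL-4. Cacna1d, another L-type gene, was at 1, 1.02 and 1.17 FPKM and then at 0.24, 0.2 and 0.23 FPKM. Both fell without overlap, with log2 fold changes of -1.38 (SE 0.18, edgeR adjusted p = 5.90e-04) and -2.09 (SE 0.13, edgeR adjusted p = 9.19e-06), although only 16.7% of the Cacna1d counts were whole. Cacna1f, an L-type gene as well, had 8, 13 and 11 counts against 4, 17 and 17 and did not pass (log2 fold change 0.40, SE 0.49, edgeR adjusted p = 0.57).

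Cacna1a, the P/Q-type pore of presynaptic terminals, was the highest of the subfamily at 4.69, 4.54 and 4.93 FPKM and fell to 2.5, 2.56 and 2.9 FPKM (log2 fold change -0.66, SE 0.07, edgeR adjusted p = 1.76e-04). The T-type gene Cacna1g fell by 0.98 on the log2 scale, whereas its relative Cacna1h did not pass (0.06, SE 0.15). One pore rose, Cacna1b of N-type channels, at a low level, from 51, 48 and 47 counts to 93, 87 and 85 counts (log2 fold change 1.01, SE 0.13, edgeR adjusted p = 6.10e-04).

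Of the calcium channel auxiliary genes, 1 of 7 tested was higher and 1 lower (0 and 2 with library totals as scale). These shares of 14.3% each were under the 19.0% and 18.4% of all genes. Cacnb3, at 29, 27.66 and 27.54 FPKM against 24.44, 25.43 and 27.01 FPKM, had a log2 fold change of 0.04 (SE 0.06, edgeR adjusted p = 0.606). Cacna2d1, the gabapentin-binding subunit, was at 5.83, 6.41 and 5.46 FPKM against 6.12, 5.89 and 4.3 FPKM and did not pass (0.06, SE 0.14). Without IL-4 6, the lowest of its group, it reached 0.22 with an edgeR adjusted p of 0.0392. Cacng7, at 22.41, 19.38 and 21.86 FPKM against 21.3, 20.62 and 19.46 FPKM, did not pass either (0.12, SE 0.09), whereas its neighbour in the family Cacng8, like it a known partner of AMPA receptors, fell from 28, 26 and 37 counts to 9, 5 and 9 counts (-1.81, SE 0.30, edgeR adjusted p = 0.00189). The single call in the other direction was Cacnb2 (log2 fold change 0.62, SE 0.19, edgeR adjusted p = 0.0338), which was lost under 9 of 13 alternative settings.

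Sodium channel genes rose or did not pass. Scn3a, a pore of fetal neurons (chr2:65457118-65567591), had 25, 9 and 12 counts in controls and 672.5, 595 and 423 expected counts with IL-4. In FPKM this was 0.09, 0.03 and 0.04 against 2.45, 2.16 and 1.53, far apart in every library, with a log2 fold change of 5.35 (SE 0.32, edgeR adjusted p = 7.35e-06). Its share of the summed FPKM of the 9 sodium pore genes went from 0.495 to 1.85% to 23.4 to 25.2%. Its counts were whole in 50% of libraries and those of Scn2a1, a neighbour on chromosome 2, in 66.7%. In IL-4 4 and 5, the counts of Scn3a, Scn2a1 and Scn1a (6.01 and 8.05 for Scn1a) add to a whole number. In IL-4 6 those of Scn3a and Scn9a (2.02 for Scn9a) do, so part of the reads were shared among these similar genes. Scn2a1 itself rose by 0.50 on the log2 scale (SE 0.13, edgeR adjusted p = 0.0156), though not with library totals as scale (adjusted p = 0.0574).

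Scn7a, which responds to extracellular sodium and not to voltage, was the main pore gene at 4.15, 5.44 and 4.58 FPKM in controls and 6.47, 6.2 and 4.35 FPKM with IL-4. The groups overlapped through IL-4 6, and it did not pass (log2 fold change 0.44, SE 0.17, edgeR adjusted p = 0.0765). Without IL-4 6 the value was 0.62 with an adjusted p of 4.72e-04. IL-4 6 is the library poorest in long transcripts, and the part of this in the result was not tested.

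TRP channel genes were higher in 5 and lower in 2 of 11 tested (45.5% and 18.2%, beside 19.0% and 18.4% of all genes). With library totals as scale the split was 4 and 4, as Trpm4 lost its call while Trpm6 and Trpm7 became lower. Trpv2, a calcium-permeable channel known from macrophages, muscle and adipocytes, rose from 14.53, 14.42 and 16.53 FPKM to 19.39, 21.38 and 21.82 FPKM (log2 fold change 0.63, SE 0.07, edgeR adjusted p = 3.12e-04). Its share of the Trpv sum was 85.2 to 87.3% in controls and 93.3 to 94.5% with IL-4, while the osmosensing Trpv4 went from 2.09, 2.48 and 2.65 FPKM to 1.39, 1.45 and 1.25 FPKM (-0.64, SE 0.13, edgeR adjusted p = 0.00493).

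Of the Trpm genes, Trpm7 made up 72.0 to 82.7% of the summed FPKM in each library. It was at 19.75, 21.44 and 18.28 FPKM in controls and at 16.69, 15.21 and 12.17 FPKM with IL-4, and did not pass (log2 fold change -0.26, SE 0.13, edgeR adjusted p = 0.154), but with library totals it did (-0.43, adjusted p = 0.0165). Trpm2, a channel opened by ADP-ribose and oxidative stress and best known from phagocytes, fell from 70, 83 and 71 counts to 17, 17 and 18 counts (-1.95, SE 0.18, edgeR adjusted p = 7.79e-05). Trpm3, a channel opened by heat and steroids, rose from 11, 9 and 12 to 24, 24 and 20 counts (1.23, SE 0.25, edgeR adjusted p = 0.00512). Trpm4, a calcium-activated channel for monovalent ions, rose by 0.29 on the log2 scale, a call absent with library totals (0.12, adjusted p = 0.308).

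The Trpc genes encode receptor-operated cation channels. Trpc6 was the highest at 3.79, 3.67 and 3.77 FPKM against 3.32, 2.75 and 3.28 FPKM and did not pass (log2 fold change -0.09, SE 0.09), with no whole count in any library. Trpc1 rose from 1.2, 1.21 and 1.09 FPKM to 1.99, 1.82 and 1.54 FPKM (0.79, SE 0.13, edgeR adjusted p = 0.00201).

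A further 6 genes outside the test had all libraries of a group above 3 counts and none of the other. How many of all untested genes had this pattern was not counted, so the number says nothing particular to channels. Trpc4 had 0, 2 and 2 counts in controls and 24, 8 and 14 with IL-4, a ratio of 12.8 with an exact 95% counting interval of 4.67 to 48.9. The same pattern, at ratios of 5.56 (2.28 to 16.4), 4.29 (1.82 to 11.7) and 7.05 (2.07 to 37.2), was seen for Trpm1, a channel of retinal bipolar cells, for Kcnq3, an M-type subunit, and for Kcns3, a silent modifier. Kcnk12 (ratio 0.209, 0.039 to 0.729) and the inward rectifier Kcnj14 (0.514, 0.16 to 1.45, which includes no change) were the reverse. These intervals cover counting error only. The genes were picked by the same counts, so an interval that excludes no change is not a test of the change.

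**Figure D5:**
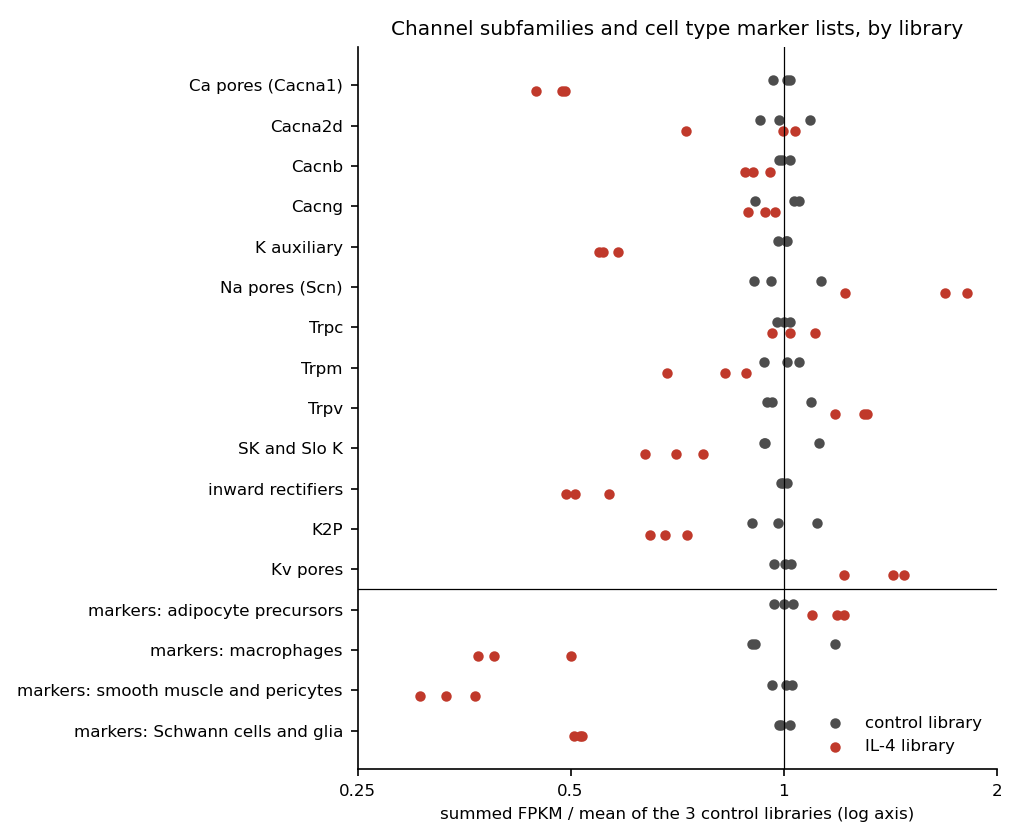
Summed FPKM of channel subfamilies other than the sodium beta subunits (above the line) and of 4 cell type marker lists (below it) in every library. Sums are divided by the mean of the 3 control libraries, on a log axis. Calcium pores, inward rectifiers and potassium auxiliary subunits lie near 0.5 with IL-4. The macrophage, smooth muscle and Schwann cell lists are lower too, and the AP list is higher (mean 6640 FPKM in controls, 7750 FPKM with IL-4). Voltage-gated potassium pores, sodium pores and Trpv genes lie above 1, and Trpc genes near 1. Kcnd3 made up 31.6 to 41.0% of the voltage-gated potassium sum with IL-4, and the other genes of that subfamily summed lower than in controls.

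Several channel subfamilies and 3 marker lists named for other cells had lower summed FPKM with IL-4. These sums carry no TMM scaling. Cacnb, Cacng and Cacna2d genes also summed lower (31.2, 22.1 and 5.94 FPKM in controls, 28.5, 20.7 and 5.48 FPKM with IL-4). Their main genes Cacnb3, Cacng7 and Cacna2d1 had log2 fold changes of 0.04, 0.12 and 0.06. Macrophage, smooth muscle and pericyte, and Schwann cell markers had median log2 fold changes of -0.97, -1.32 and -0.77, and 7 of 10 AP markers were higher with a median of 0.51. Of 8 endothelial markers, 4 were lower and 2 higher (median -0.61), and their summed level was 13.9 to 14.4 FPKM in controls and 14.5 to 16.8 FPKM with IL-4. The part of these cells in the fall of Kcna3, Kcnj8, Kcnj10, Kcnma1, Trpm2 or the calcium pores was not tested.

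Genes that work beside these channels were read from lists of related functions. Of all genes tested, 19.0% were higher and 18.4% lower, and 5.77% were higher beyond 2-fold. Of the sodium pump subunits and FXYD regulators, 5 of 10 tested were higher, all beyond 2-fold, and 1 was lower. Fxyd5 (from a mean of 159 to 358 FPKM, log2 fold change 1.34), Fxyd1 (1.87) and Fxyd6 (1.59), small single-span proteins that bind the pump, rose. Among genes of store-operated entry and calcium release, 2 of 10 were higher and 4 lower, with Ryr1 at 2.87 and Orai3 at 0.53, and Ryr3 at -2.37 and Stim1, Orai2 and Itpr3 at -0.33, -0.33 and -0.72. Calcium pumps and exchangers had 2 of 9 higher and 3 lower (22.2% and 33.3%). The largest changes were those of Atp2b4 (-1.60), a plasma membrane pump, and Atp2a3 (-1.31), a reticulum pump.

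TRP relatives outside the symbol rule had 2 of 6 higher and 1 lower (33.3% and 16.7%, beside 19.0% and 18.4% of all genes). The lysosomal channels Mcoln2 and Mcoln3 were at 1.0 and -1.06. Of other cation channels, 3 of 13 were higher and 2 lower (23.1% and 15.4%), near the shares of all genes. Hcn4, the pacemaker channel of the heart, rose from a mean of 0.0733 to 1.80 FPKM (log2 fold change 4.80, SE 0.29, edgeR adjusted p = 7.91e-06). Tpcn2, a channel of lysosomes, went from 9.64 to 17.4 FPKM (1.02). Partner proteins had 2 of 7 higher and 1 lower (28.6% and 14.3%), with Stac2, which binds L-type channels, at 1.36 while Cacna1c and Cacna1d fell.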

How the data were processed

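For mRNA-seq, per the labels and the study's methods, poly-A RNA was sequenced on BGISEQ-500, SOAPnuke removed poor reads, and Bowtie2 alignments to RefSeq transcripts (mm10) were turned into gene levels by RSEM. The submitters' processing notes also name HISAT and StringTie. The deposited files hold expected counts without any scaling. They also hold FPKM, in which the authors corrected for library total and transcript length. A gene not listed for a library was taken as 0, and 1 row without a gene number was left out. Use of strand is not given in the sources used here, so reads of a gene and its antisense partner cannot be told apart.

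Expected counts were rounded, filtered (filterByExpr, minimum count 10, minimum total 15) and scaled by TMM in edgeR 4.0.16 under R 4.3.3. The quasi-likelihood test compared 3 IL-4 with 3 control libraries, with Benjamini-Hochberg adjustment over 14009 genes and calls at an adjusted p under 0.05. FPKM carry no TMM scaling, so their ratios differ from the fitted fold changes. Genes named were those called beyond a log2 fold change of 1, the 10 highest of each group, those above 3 counts in all libraries of a single group, and the highest of each subfamily. Others were chosen after their values were seen, and some genes that the rule names are not reported here. The genes, lists and tests were chosen with earlier results of these data known. Alternatives used DESeq2 1.42.0, limma 3.58.1 on log2(FPKM + pseudocount), other scalings, no filter and left-out libraries. Coordinates and promoters are from RefSeq, GRCm38.p6, and matched 141 and 107 genes. Small RNA libraries were not used here.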

Additional observations from a re-analysis of the deposited data

How the results depend on the processing

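The counts of higher and lower channel genes kept within 1.5 times of the reported 19 and 22 under every alternative run. With DESeq2 they were 18 and 22, with upper-quartile scaling 19 and 23, with library totals 15 and 28, without a filter 24 and 23 (of 141), and with limma on log2(FPKM + 1) or log2(FPKM + 0.1) 13 and 25. Of the 41 calls, 33 held under all 13 alternatives, including 10 of the 11 beyond 2-fold upward and all 15 downward. The exceptions were 8 genes, among them Kcnu1, Kcnn4, Cacnb2, Kcna1, Kcnn1, Scn2a1 and Trpm4. No called direction reversed.

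Beyond 2-fold, limma on log2(FPKM + 1) called 2 higher and 4 lower genes in place of 11 and 15, and on log2(FPKM + 0.1) 5 higher ones. By construction, a pseudocount shrinks the change of genes at low FPKM. Leaving out single libraries gave 13 to 21 higher and 21 to 22 lower genes, and 8 to 12 and 14 to 17 beyond 2-fold. Leaving out control 3 and IL-4 6 together, an alternative chosen after seeing the data, gave 20, 23, 10 and 15. Scn7a passed without IL-4 6 and with DESeq2 (adjusted p = 0.0347). Without a filter, 6 genes too low for the reported test were called, 5 of them higher.

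No paired analysis was possible because the control and IL-4 libraries share no replicate number. Depth left 72 of the 141 genes with too few counts for the reported test, and it limits what can be said of them.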
